A study of Mus musculus with 36 samples.

Results

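Engulfment, the recognition and uptake of dying cells, debris and unwanted synaptic material, was examined here through 10 genes that encode its receptors, bridging ligands and an adaptor. These were the Draper-like receptors Megf10, Megf11 and Pear1, the TAM receptors Tyro3, Axl and Mertk, the TAM ligands Gas6 and Pros1, the scavenger receptor Lrp1 and the adaptor Gulp1. They were found by their Ensembl identifiers among the 52636 genes of the count table, and 10 of 10 passed the filter on low counts. The RNA came from skeletal muscle (diaphragm, pectoralis, forelimb and hindlimb) of young S100β-GFP;NG2-dsRed mice, and each replicate was 1 mouse. Every mouse carried both transgenes, GFP under the S100b promoter and dsRed under the promoter of Cspg4, the gene of the proteoglycan NG2. FACS divided the cells by fluorescence into perisynaptic Schwann cells (PSCs, the glia that cover the neuromuscular junction), which carry both colours, S100β-GFP+ cells with GFP alone and NG2-dsRed+ cells with dsRed alone. A gate on a transgene takes every cell that uses its promoter, and in muscle NG2 is also made by pericytes. The methods give ages of P15 to P21, whereas the upper age in the labels goes from 21 in library 1 to 46 in the last libraries, so age was used in no comparison.

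TAM receptors are receptor tyrosine kinases that do not touch a dying cell directly. Their ligands GAS6 and protein S (Pros1) carry vitamin K-dependent domains that hold phosphatidylserine, the lipid exposed on dying membranes, and so bridge the target to the receptor. MERTK and TYRO3 respond to both ligands, while AXL responds to GAS6. MEGF10, MEGF11 and PEAR1 are mammalian relatives of Drosophila Draper, the receptor by which fly glia clear axon debris and prune neuromuscular synapses, and in mammals MEGF10 and MERTK are known for the uptake of synapses by astrocytes. LRP1 takes up many ligands, among them apoptotic cells marked by calreticulin, and GULP1 is the counterpart of the worm adaptor CED-6, which binds the tails of Draper-like receptors and LRP1.

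Libraries held between 5221655 and 9592875 counts on genes, of which 3.64% to 40.0% fell on just 3 genes, Lars2, Gm15564 and Gm23935. Levels are given as CPM (counts per 1000000, with edgeR's TMM scaling), as lowest, median and highest library, over 9 PSC, 8 S100β-GFP+ and 10 NG2-dsRed+ libraries. Sox10, the transcription factor that defines the Schwann lineage, was at 379 to 703 CPM in PSCs, 5.57 to 38.8 in S100β-GFP+ libraries and 1.46 to 9.79 in NG2-dsRed+ libraries. The study names the S100β-GFP+ population Schwann cells, but the macrophage markers summed there to 394 to 2680 CPM and the fibroblast markers to 15300 to 31600, against 2.33 to 14.9 and 1250 to 3500 in PSCs, so it is called S100β-GFP+ cells here. S100β-GFP+ libraries 14, 17 and 22 stood apart from the others of that gate, with the 3 lowest macrophage sums (394 to 860) and the 3 highest endothelial sums (687 to 1980, against 118 to 176 in the rest). In sorted bulk samples such as these, fewer cells of a type and less RNA per cell cannot be told apart.

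Megf10, Mertk, Tyro3, Pros1 and Gulp1, 5 of the 10 genes, were higher in PSCs than in either other population (edgeR's quasi-likelihood test, adjusted p under 0.05). Axl and Gas6 were lower in PSCs than in both. Lrp1 was lower in PSCs than in S100β-GFP+ cells, Pear1 was lower in PSCs than in NG2-dsRed+ cells, and Megf11 passed in no comparison. Against S100β-GFP+ cells 8 of the 10 passed, 5 higher and 3 lower in PSCs, where 47.0% of the 15330 genes tested passed (22.9% higher and 24.1% lower). Against NG2-dsRed+ cells 8 passed as well, again 5 higher and 3 lower, beside 44.0% of all genes (20.9% higher and 23.1% lower). Between S100β-GFP+ and NG2-dsRed+ cells 4 passed, 2 in each direction, beside 33.3% of all genes (18.1% and 15.2%). Libraries did not overlap for 4 members in the first comparison, for 6 in the second and for 3 in the third, against 15.5%, 13.9% and 11.6% of all genes. The median log2 fold changes of the 10 were 0.29, 0.09 and 0.17, and those of all genes tested 0.04, 0.02 and -0.02. These comparisons share libraries, so their counts are not independent of each other.

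**Figure D1:**
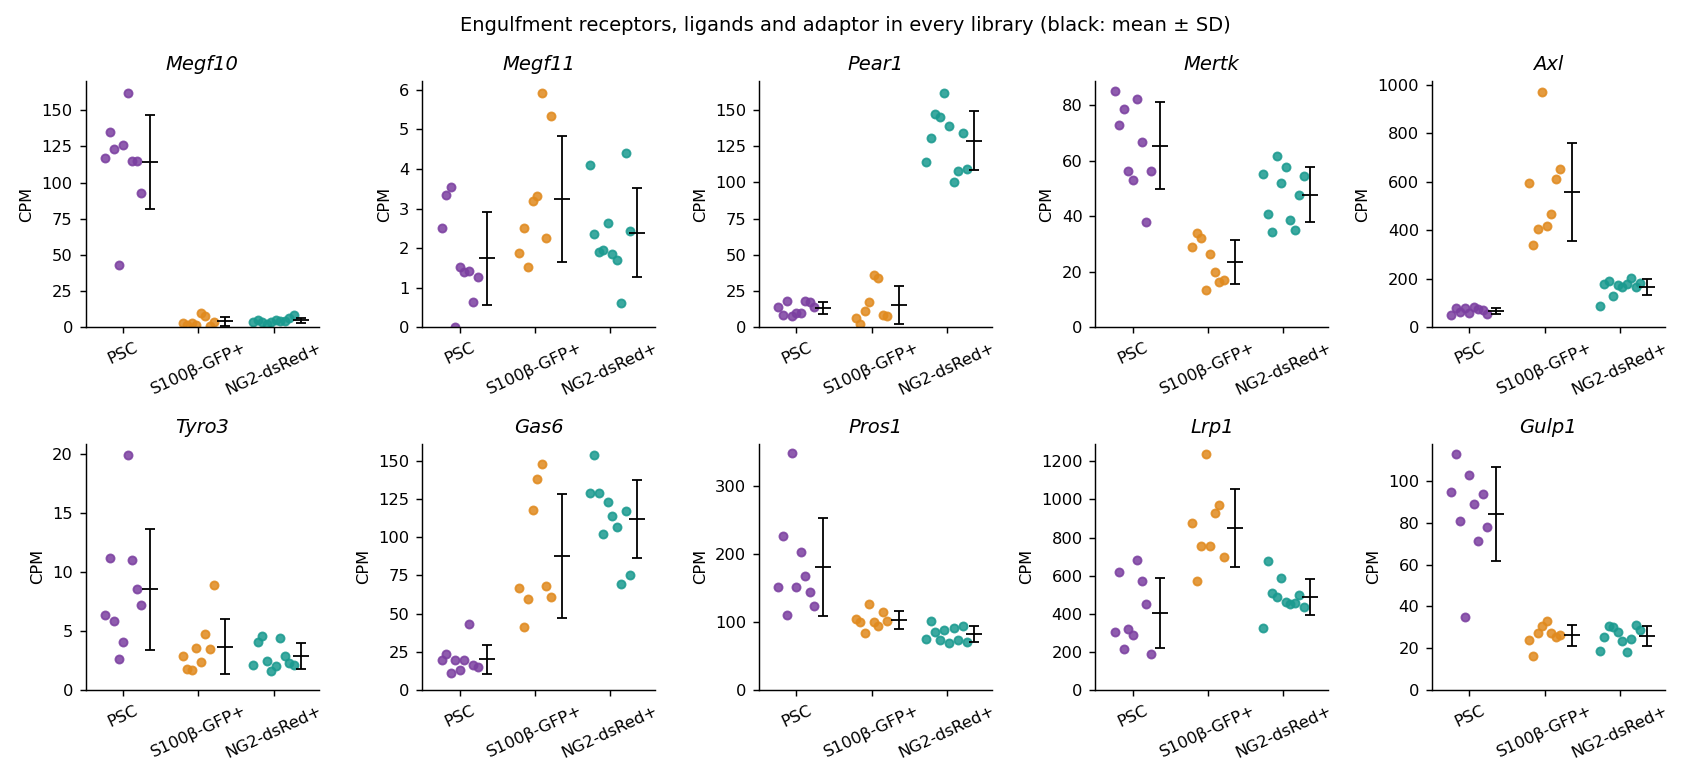
Level of each of the 10 genes in every library, in CPM on linear axes that start at 0, with 1 point per library (9 PSC, 8 S100β-GFP+, 10 NG2-dsRed+) and the mean ± SD in black. Megf10 stands clear of both other populations in PSCs, Axl in S100β-GFP+ cells and Pear1 in NG2-dsRed+ cells, while Megf11 stays under 6 CPM in all 27 libraries. Gulp1 is higher in every PSC library than in any other, but at the closest by only 35.2 against 32.9 CPM.

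Megf10 (ENSMUSG00000024593, chr18:57133090-57297467, GRCm38, plus strand) had the largest fold change of the 10 genes. Its level was 43.3, 117 and 162 CPM in PSCs, 0.697, 3.12 and 10.2 in S100β-GFP+ cells and 2.67, 4.57 and 8.89 in NG2-dsRed+ cells. The lowest PSC library was 4.26 times the highest S100β-GFP+ library and 4.87 times the highest NG2-dsRed+ library, so neither group overlapped with PSCs. PSCs were 28.4-fold higher than S100β-GFP+ cells (log2 fold change 4.83, SE 0.38, adjusted p = 1.39e-11) and 23.3-fold higher than NG2-dsRed+ cells (4.54, SE 0.34, adjusted p = 5.09e-12). The S100β-GFP+ and NG2-dsRed+ populations did not differ past the threshold (-0.29, SE 0.34, adjusted p = 0.568), and without S100β-GFP+ libraries 14, 17 and 22 Megf10 was lower in S100β-GFP+ cells (-1.02, adjusted p = 0.0186). Libraries 17 and 22 held the 2 highest S100β-GFP+ values, 10.2 and 8.23 CPM. Within PSCs 8 libraries lay between 92.8 and 162 CPM and library 18 lay at 43.3.

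Pear1, first described as an aggregation receptor of platelets and endothelium (ENSMUSG00000028073, chr3:87747890-87824306, minus strand), was instead highest in NG2-dsRed+ cells. It had 8.06, 14.3 and 18.3 CPM in PSCs, 2.25, 9.89 and 36.2 in S100β-GFP+ cells and 100, 132 and 162 in NG2-dsRed+ cells. Every NG2-dsRed+ library exceeded every library of the other populations. NG2-dsRed+ cells were 9.75-fold over PSCs (log2 fold change -3.29 for PSCs minus NG2-dsRed+ cells, SE 0.34, adjusted p = 4.86e-09) and 8.34-fold over S100β-GFP+ cells (-3.06, SE 0.36, adjusted p = 6.3e-08). Between PSCs and S100β-GFP+ cells it was not past the threshold (-0.23, SE 0.34, adjusted p = 0.611), and this value rested on a few libraries. S100β-GFP+ libraries 17 and 22 were at 36.2 and 34.4 CPM, above all PSC libraries. They had the 2 highest pericyte sums (1500 and 1300 CPM) and the 2 highest endothelial sums (1980 and 1100 CPM) of that gate. Leaving out library 17 gave 0.07 and leaving out library 22 gave 0.05, and without 14, 17 and 22 Pear1 was higher in PSCs (0.93, adjusted p = 0.00638). Pericyte and smooth muscle sums were 773 to 1390 CPM in PSCs, 228 to 1500 in S100β-GFP+ cells and 6790 to 14700 in NG2-dsRed+ cells. That list includes Cspg4, the gene behind the dsRed gate, at 503 to 965, 34.5 to 148 and 487 to 890 CPM in the same order. Of the 7 markers in it, 1 was higher and 4 were lower in PSCs than in S100β-GFP+ cells by edgeR's test. Endothelial markers summed to 96.9 to 467, 118 to 1980 and 1160 to 2620 CPM. The part of either marker list in the Pear1 result was not tested. Pear1 shares 321 exonic bases with Lrrc71 on the same strand, so reads there are uncertain.

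Megf11 (ENSMUSG00000036466, chr9:64385626-64709205, plus strand), the closest relative of Megf10, was at low levels in all populations. Values were 0, 1.43 and 3.55 CPM in PSCs, 1.52, 2.84 and 5.92 in S100β-GFP+ cells and 0.608, 2.16 and 4.39 in NG2-dsRed+ cells. All groups overlapped. They rest on 0 to 36 counts a library, and the 0 in PSC library 18 allows up to 3 counts. The log2 fold changes were -0.86 (SE 0.45, adjusted p = 0.12), -0.44 (SE 0.43, adjusted p = 0.437) and 0.43 (SE 0.44, adjusted p = 0.507) in the 3 comparisons.

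**Figure D2:**
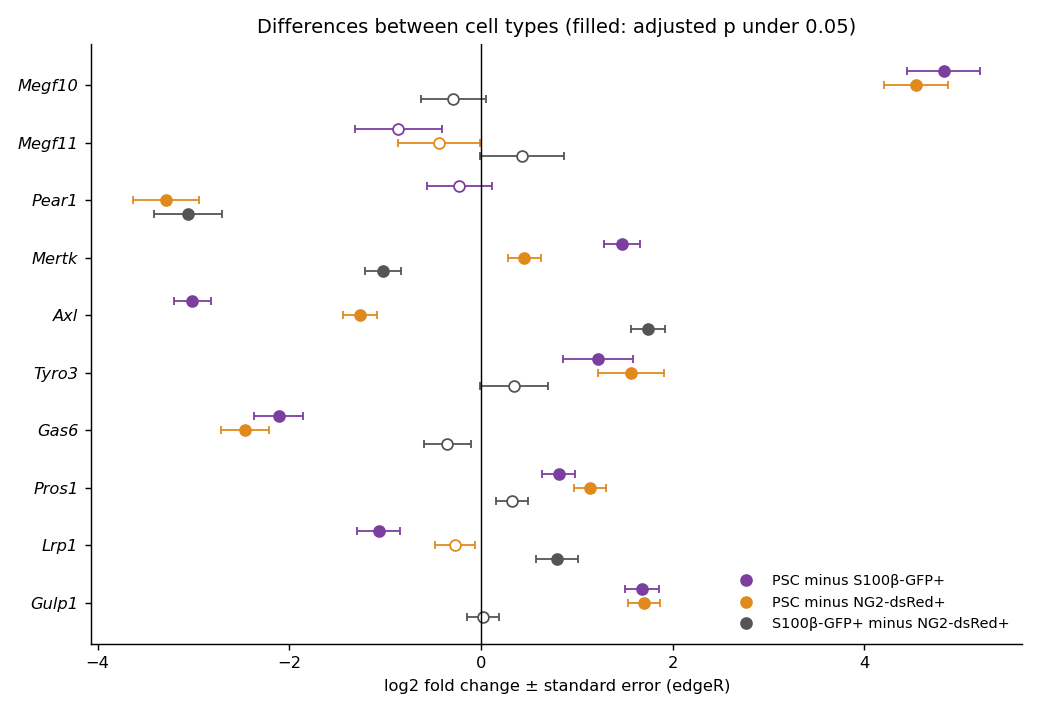
Log2 fold change of each gene in the 3 comparisons, with its standard error as the bar, from edgeR's fit of all libraries, and filled points for an adjusted p under 0.05. Megf10 lies beyond 4 in both PSC comparisons, Axl and Gas6 lie left of -1 in both, and Pear1 is near 0 against S100β-GFP+ cells and beyond -3 against NG2-dsRed+ cells.

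Among the TAM receptors PSCs and S100β-GFP+ cells lay at opposite ends, with Mertk highest in PSCs and Axl highest in S100β-GFP+ cells. Mertk (ENSMUSG00000014361, chr2:128698956-128802894, plus strand) had 38.1, 66.8 and 85.2 CPM in PSCs, 13.6, 23.1 and 34.1 in S100β-GFP+ cells and 34.3, 49.9 and 61.8 in NG2-dsRed+ cells. Every PSC and every NG2-dsRed+ library was above every S100β-GFP+ library, the latter by a margin of 34.3 against 34.1, whereas 5 of 9 PSC libraries exceeded all NG2-dsRed+ libraries and the others overlapped them. PSCs were 2.77-fold over S100β-GFP+ cells (log2 fold change 1.47, SE 0.19, adjusted p = 2.49e-07), and S100β-GFP+ cells were 2.03-fold under NG2-dsRed+ cells (-1.02, SE 0.19, adjusted p = 7.82e-05). The PSC excess over NG2-dsRed+ cells was 1.37-fold (0.45, SE 0.18, adjusted p = 0.0373). That last call was lost when any 1 of PSC libraries 6 and 23 or NG2-dsRed+ libraries 7, 9, 26 and 30 was left out (adjusted p between 0.0508 and 0.0696), without a filter on low counts (0.0943) and with the Lars2, Gm15564 and Gm23935 share added to the model (0.0568).

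Axl (ENSMUSG00000002602, chr7:25757273-25788705, minus strand) followed another order. It had 52.9, 72.6 and 83.3 CPM in PSCs, 338, 532 and 969 in S100β-GFP+ cells and 90.2, 175 and 204 in NG2-dsRed+ cells. No library of one population overlapped with another population, so the order from PSCs through NG2-dsRed+ to S100β-GFP+ cells held in all 27 libraries. PSCs were 8.07-fold under S100β-GFP+ cells (log2 fold change -3.01, SE 0.19, adjusted p = 2.83e-13) and 2.4-fold under NG2-dsRed+ cells (-1.27, SE 0.18, adjusted p = 8.27e-07). The S100β-GFP+ libraries were 3.36-fold over NG2-dsRed+ cells (1.75, SE 0.18, adjusted p = 5.41e-09).

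Tyro3 (ENSMUSG00000027298, chr2:119797733-119818104, plus strand), the TAM receptor known mainly from the nervous system, was the least abundant of the family. It was at 2.63, 7.16 and 19.9 CPM in PSCs, 1.66, 3.19 and 8.88 in S100β-GFP+ cells and 1.58, 2.38 and 4.57 in NG2-dsRed+ cells. Groups overlapped, although 7 of 9 PSC libraries lay above all NG2-dsRed+ libraries and 3 above all S100β-GFP+ libraries. PSCs were 2.34-fold over S100β-GFP+ cells (log2 fold change 1.22, SE 0.37, adjusted p = 0.00685) and 2.96-fold over NG2-dsRed+ cells (1.57, SE 0.34, adjusted p = 0.000413). PSC libraries 6, 23 and 31 held the 3 highest Tyro3 values (11.2, 19.9 and 11.0 CPM) and the 3 largest shares of counts on Lars2, Gm23935 and Gm15564 among PSCs (31.5%, 36.6% and 31.6%). With that share as a term in the fit Tyro3 was higher in PSCs by 1.56 and 1.79 on the log2 scale (adjusted p = 0.00077 and 5.14e-05).

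The ligands split as well, Pros1 toward PSCs and Gas6 away from them. Gas6 (ENSMUSG00000031451, chr8:13465374-13494490, minus strand) was at 11.2, 19.6 and 43.5 CPM in PSCs, 41.6, 67.5 and 148 in S100β-GFP+ cells and 69.1, 115 and 154 in NG2-dsRed+ cells. All PSC libraries were below all NG2-dsRed+ libraries, and 8 of 9 were below all S100β-GFP+ libraries, the exception being library 31 at 43.5. PSCs were 4.32-fold under S100β-GFP+ cells (log2 fold change -2.11, SE 0.26, adjusted p = 6.85e-08) and 5.51-fold under NG2-dsRed+ cells (-2.46, SE 0.25, adjusted p = 3.47e-09). The other populations did not differ past the threshold (-0.35, SE 0.25, adjusted p = 0.294), and here too libraries 14, 17 and 22 carried the 3 highest S100β-GFP+ values (118, 138 and 148 CPM). Without them Gas6 was lower in S100β-GFP+ than in NG2-dsRed+ cells (-0.93, adjusted p = 0.00281). Gas6 shares 34 exonic bases with Tmem255b on the opposite strand, and the sources do not say if strand was used in counting.

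Pros1 (ENSMUSG00000022912, chr16:62854307-62929346, plus strand), better known as an anticoagulant of plasma, was at 111, 151 and 348 CPM in PSCs, 84.2, 101 and 126 in S100β-GFP+ cells and 69.2, 80.0 and 102 in NG2-dsRed+ cells. PSC libraries lay above all NG2-dsRed+ libraries, and 7 of 9 lay above all S100β-GFP+ libraries. The excess was 1.76-fold (log2 fold change 0.81, SE 0.17, adjusted p = 0.000276) and 2.2-fold (1.14, SE 0.16, adjusted p = 1.18e-06). The highest value, 348 CPM, was that of PSC library 18, the library that was lowest in Megf10, Gulp1 and Tyro3, and without it the log2 fold changes were 0.68 and 1.03 (adjusted p = 6.59e-05 and 4.95e-08). S100β-GFP+ and NG2-dsRed+ cells were not separated (0.33, SE 0.17, adjusted p = 0.138), though without PSC library 18 this comparison passed (0.36, adjusted p = 0.0197).

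Upstream sequence is shown for the 2 receptors and the 2 ligands that divide the populations, as the 250 bases before the start site in RefSeq's GRCm38.p6 table, which held 8 of the 10 genes (not Megf10 and Megf11). The windows are chr2:128698665-128698914 on the plus strand (Mertk), chr16:62854057-62854306 on the plus strand (Pros1), chr7:25788734-25788983 on the minus strand (Axl) and chr8:13494536-13494785 on the minus strand (Gas6). They are written 5′ to 3′ on the gene's strand, and capitals mark matches, on either strand, to the motifs searched.
Mertk: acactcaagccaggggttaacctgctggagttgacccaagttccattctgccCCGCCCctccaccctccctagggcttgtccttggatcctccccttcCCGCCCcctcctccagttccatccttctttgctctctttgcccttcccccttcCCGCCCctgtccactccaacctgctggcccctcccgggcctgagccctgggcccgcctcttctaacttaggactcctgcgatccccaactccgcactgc
Pros1: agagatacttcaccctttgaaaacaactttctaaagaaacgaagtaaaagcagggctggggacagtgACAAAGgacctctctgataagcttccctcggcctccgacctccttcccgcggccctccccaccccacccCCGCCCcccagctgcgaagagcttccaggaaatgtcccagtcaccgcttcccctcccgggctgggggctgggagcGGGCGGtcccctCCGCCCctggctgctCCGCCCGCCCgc
Axl: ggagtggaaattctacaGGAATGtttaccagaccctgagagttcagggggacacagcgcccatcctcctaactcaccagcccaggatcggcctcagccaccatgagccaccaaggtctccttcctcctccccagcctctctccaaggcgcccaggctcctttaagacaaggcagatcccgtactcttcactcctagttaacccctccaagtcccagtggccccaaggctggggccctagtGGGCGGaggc
Gas6: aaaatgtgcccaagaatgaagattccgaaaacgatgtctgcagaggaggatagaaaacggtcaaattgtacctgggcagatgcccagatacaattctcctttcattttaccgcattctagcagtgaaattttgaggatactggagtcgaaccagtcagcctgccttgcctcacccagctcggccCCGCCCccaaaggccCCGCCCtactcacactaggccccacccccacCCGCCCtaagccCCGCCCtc
The motifs were the GC box GGGCGG, the SOX-type core ACAAAG, the TEAD-type core GGAATG, the AP-1 site TGACTCA and the TATA box TATAAA. All 8 windows held a GC box, which is in 32.7% of the 32851 promoters of the table, with 3 matches in Mertk, 5 in Pros1, 1 in Axl and 4 in Gas6, of which 2 in Pros1 overlap. ACAAAG was found in the Pros1 window alone (16.5% of all promoters) and GGAATG in the Axl window alone (12.6%), while TGACTCA and TATAAA (4.46% and 12.4%) were found in none of the 8. The GC content of the windows was 63.6% for Mertk, 64.4% for Pros1, 60% for Axl and 54.8% for Gas6, against a median of 52.4%. A match describes these letters and is not a bound site.

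Lrp1 (ENSMUSG00000040249, chr10:127538161-127621148, minus strand) was abundant in every population, with 190, 321 and 684 CPM in PSCs, 572, 818 and 1240 in S100β-GFP+ cells and 325, 477 and 676 in NG2-dsRed+ cells. S100β-GFP+ libraries were the highest, with 7 of 8 above all NG2-dsRed+ libraries, and 7 of 9 PSC libraries were below all of them. PSCs were 2.1-fold lower than S100β-GFP+ cells (log2 fold change -1.07, SE 0.22, adjusted p = 0.000235), S100β-GFP+ cells were 1.74-fold over NG2-dsRed+ cells (0.80, SE 0.22, adjusted p = 0.00478), and PSCs did not differ from NG2-dsRed+ cells past the threshold (-0.27, SE 0.21, adjusted p = 0.311). PSCs spread widely here, since libraries 6, 23 and 31 lay at 571 to 684 CPM and the other 6 at 190 to 452. These are the libraries already named for Tyro3 and the Lars2, Gm23935 and Gm15564 share, and with that share as a term the difference from S100β-GFP+ cells was -0.78 (adjusted p = 0.000292).

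Gulp1 (ENSMUSG00000056870, chr1:44551511-44796838, plus strand) was at 35.2, 89.1 and 113 CPM in PSCs, 16.1, 26.9 and 32.9 in S100β-GFP+ cells and 18.1, 26.7 and 31.0 in NG2-dsRed+ cells. Every PSC library exceeded every other library, even library 18 at 35.2, and the other 8 lay between 71.4 and 113. PSCs were 3.21-fold and 3.26-fold over S100β-GFP+ and NG2-dsRed+ cells (log2 fold changes 1.68, SE 0.18, adjusted p = 4.87e-09, and 1.70, SE 0.17, adjusted p = 1.09e-09). The other 2 populations lay on top of each other (0.02, SE 0.17, adjusted p = 0.935).

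Dividing CPM by exon length allows the genes of a family to be set against each other within a library. The length was that of all annotated exons of a gene merged, not of the transcripts expressed. Near ties between genes, in these shares and in the order by level per kb, are therefore uncertain. Of the summed TAM receptor level per kb, Mertk made up a median of 49.0% (35.7% to 63.0%) and Axl 46.2% (33.7% to 58.6%) in PSCs. In S100β-GFP+ cells Axl made up 94.4% (89.2% to 98.1%) and Mertk 5.0%, and in NG2-dsRed+ cells 74.1% (57.8% to 82.6%) and 25.1%. Tyro3 was at most 8.28% in any library. Of the summed ligand level Pros1 made up 85.8% (70.7% to 91.7%) in PSCs and Gas6 69.0% (60.1% to 73.4%) in NG2-dsRed+ cells. In S100β-GFP+ cells the ligands were nearly even, with Gas6 at 51.9% (40.1% to 71.7%) and Pros1 at 48.1%. Among Draper-like receptors Megf10 made up 84.9% (82.5% to 92.9%) in PSCs, while Pear1 made up 95.8% (92.2% to 97.6%) in NG2-dsRed+ cells and 76.1% (44.3% to 82.9%) in S100β-GFP+ cells. The summed Draper-like level was a median of 17.7 CPM per kb in PSCs, 20.6 in NG2-dsRed+ cells and 2.14 in S100β-GFP+ cells. PSCs (6.80 to 22.5) and NG2-dsRed+ cells (15.5 to 24.7) therefore overlapped in the sum, which consisted of different receptors.

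**Figure D3:**
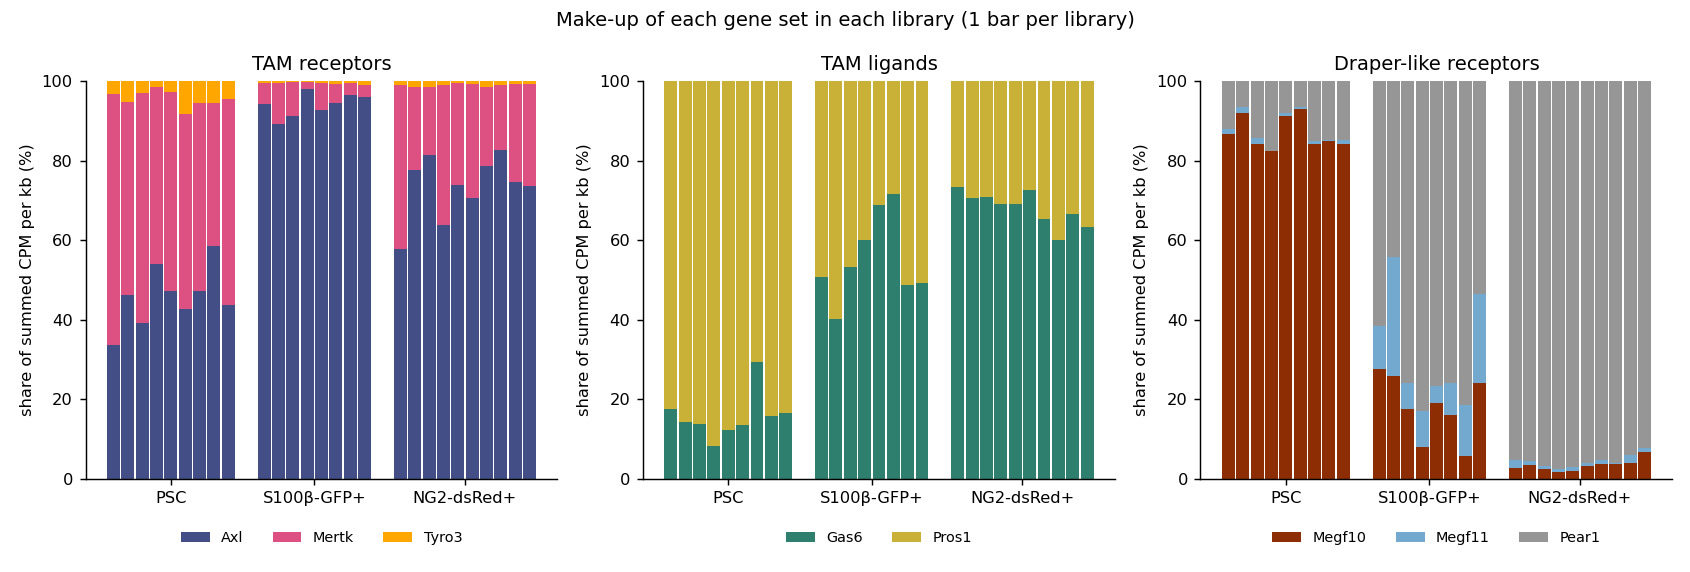
Share of each gene in the summed CPM per kb of exon of its family (percent, 0 to 100), with 1 bar per library, for TAM receptors, TAM ligands and Draper-like receptors. Megf10 fills at least 82.5% of every PSC bar and Pear1 at least 92.2% of every NG2-dsRed+ bar, and Axl fills at least 89.2% of every S100β-GFP+ bar.

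Ordered by median level per kb, PSCs had Pros1 first (36.9 CPM per kb, above the next gene in 9 of 9 libraries), then Gulp1 (23.7), Lrp1 (18.1), Mertk (15.4), Megf10 (15.1) and Axl (14.4). The neighbours from Gulp1 to Megf10 changed places between libraries, since Gulp1 was above Lrp1 in 4 of 9, Lrp1 above Mertk in 6 and Mertk above Megf10 in 5. Gas6 (7.70), Pear1 (2.10), Tyro3 (1.15) and Megf11 (0.128) followed. S100β-GFP+ cells had Axl first (106, above the next gene in 8 of 8 libraries), then Lrp1 (46.1), Gas6 (26.5) and Pros1 (24.6), of which Gas6 exceeded Pros1 in 5 of 8. NG2-dsRed+ cells had Gas6 (45.3), Axl (34.8), Lrp1 (26.9), Pros1 (19.6) and Pear1 (19.5), and Pros1 exceeded Pear1 in 6 of 10.

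Markers of other cell types moved with several of these genes. For macrophages, whose engulfment machinery includes Mertk, Axl and Lrp1, each of the 8 markers was higher in every S100β-GFP+ library (at least 20.9 CPM) than in any PSC library (at most 8.97 CPM), and 3 of the 8, including the defining marker Adgre1, were at 0 in at least 1 PSC library. In PSCs, where Mertk was highest, the 8 markers summed to 2.33 to 14.9 CPM, and in NG2-dsRed+ cells to 7.57 to 30.6. Within S100β-GFP+ cells the 3 libraries with the largest macrophage sums (1980, 2380 and 2680 CPM) were also the 3 highest in Mertk (29.0, 32.1 and 34.1 CPM). The other libraries of that gate did not keep this order. Libraries 27 and 33 (sums of 1780 and 1650 CPM) had Mertk at 16.4 and 17.1 CPM. Libraries 17 and 22 (585 and 394 CPM) had more, at 26.3 and 19.9 CPM, and library 14 (860 CPM) had 13.6. Axl and Lrp1 shared their extremes with the fibroblast markers in the S100β-GFP+ gate. Library 14 had the largest fibroblast sum (31600 CPM), the highest Axl (969) and the highest Lrp1 (1240), and library 3 had the smallest sum (15300), the lowest Axl (338) and the lowest Lrp1 (572). Among NG2-dsRed+ libraries, library 2 was lowest in fibroblast markers (1860), Axl (90.2) and Lrp1 (325), and library 28 was highest in fibroblast markers (17500) and Axl (204), but its Lrp1 (458) was below the median, and Lrp1 was highest (676) in library 7, with a fibroblast sum of 7010. The 6 fibroblast markers were all lower in PSCs than in both other populations by edgeR's test. In NG2-dsRed+ libraries 28 and 35 the largest fibroblast sums (17500 and 14300) stood beside the smallest pericyte sums (7390 and 6790) and the lowest Gas6 (69.1 and 75.2). The part of macrophages, fibroblasts, pericytes and endothelium in these results was not tested.

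**Figure D4:**
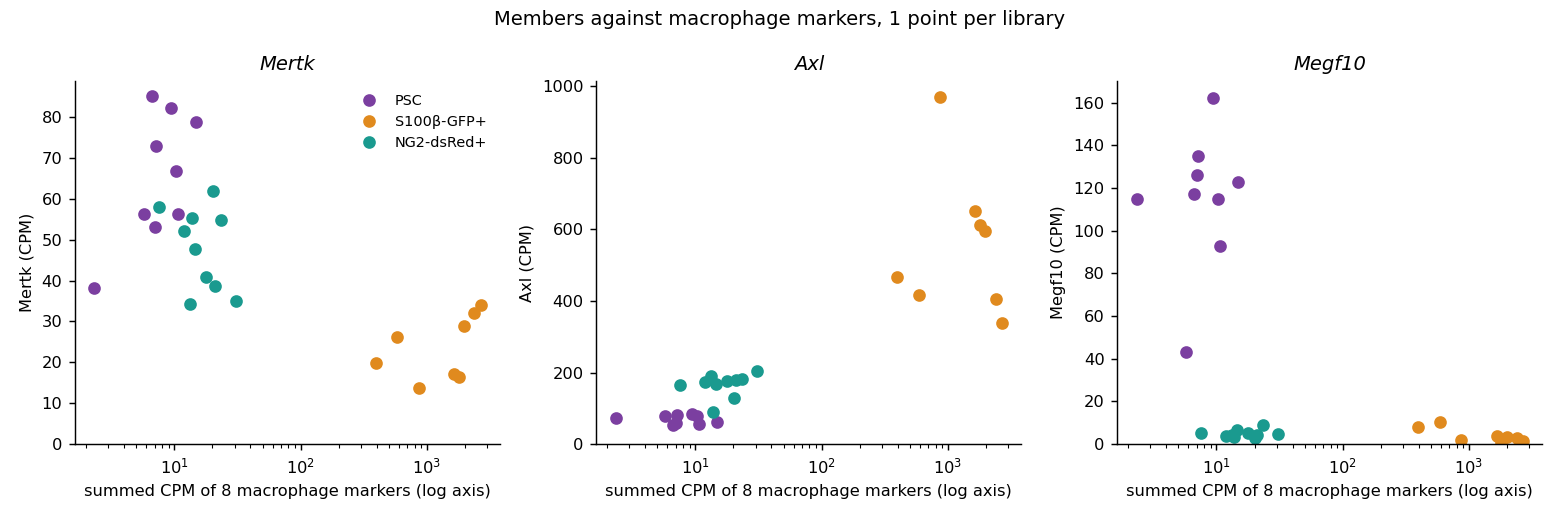
CPM of Mertk, Axl and Megf10 (linear axes from 0) against the summed CPM of 8 macrophage markers (log axis), with 1 point per library. PSC libraries lie between 2.33 and 14.9 on the horizontal axis and S100β-GFP+ libraries between 394 and 2680, and the highest Mertk and Megf10 values are in PSC libraries.

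The genes whose log2 CPM ran most nearly parallel to a member over the 27 libraries give its pattern a context. These are Pearson correlations over libraries of 3 populations, so they mainly reflect differences between the populations, and they are given as a description. Megf10 was closest to Kank4 (r = 0.97) and to Bche, which encodes butyrylcholinesterase (r = 0.97). Pear1 was closest to Gja4, the vascular connexin 37 (r = 0.98), and to Olfr558 (r = 0.97). For Axl they were the lysyl oxidase relative Loxl1 (r = 0.98) and the actin-severing gelsolin, Gsn (r = 0.97), and for Gas6 Smad7 (r = 0.97) and Tek, the angiopoietin receptor (r = 0.96). Pros1 ran with Tecr and Zfp219 (0.96 and 0.95) and Gulp1 with Ick and Trim2 (0.96 and 0.94), and Lrp1 with Rnf145 and Tbc1d2b (0.91 and 0.91). The likeness was weaker for Mertk (G0s2 and Spen, 0.87 each), Tyro3 (Dennd2a and Gramd1c, 0.84 each) and the sparse Megf11 (Etohd2 and Gm26648, 0.83 and 0.82). Among the members themselves the highest value was between Megf10 and Gulp1 (0.93) and the lowest between Mertk and Axl (-0.90).

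Beyond the 10 genes, 80 others of the engulfment machinery were followed, of which 72 passed the filter. Between PSCs and S100β-GFP+ cells 12 were higher and 37 lower in PSCs and 23 did not pass, where 22.9% of all genes were higher and 24.1% lower, with a median log2 fold change of -0.56 beside 0.04 for all genes. Between PSCs and NG2-dsRed+ cells 10 were higher, 30 lower and 32 did not pass (20.9% higher and 23.1% lower over all genes, median -0.53 beside 0.02), and between S100β-GFP+ and NG2-dsRed+ cells 31 were higher, 9 lower and 32 did not pass (18.1% and 15.2% over all genes, 0.24 beside -0.02). Counts of the single lists below (5 to 16 genes each) stand against 47.0% and 44.0% of all genes called in the PSC comparisons. Where a list's share called, both directions together, is near these, nothing is read from its count. That holds for the carboxylation and shedding genes, the scramblases and phagosome maturation. Against NG2-dsRed+ cells it also holds for the Lrp1 family and the other receptors for apoptotic cells. Among the members the corresponding numbers for PSCs were 5 higher and 3 lower in both comparisons.

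Among 8 other receptors for apoptotic cells, 1 was higher in PSCs in each comparison, and 4 and 3 were lower (S100β-GFP+ first). The 1 gene was Adgrb1 (BAI1), a phosphatidylserine receptor that signals through ELMO and DOCK, with mean levels of 12.5 CPM in PSCs, 0.759 in S100β-GFP+ and 0.184 in NG2-dsRed+ cells, the order used for means from here on (log2 fold change 5.97 against NG2-dsRed+ cells, SE 0.67, adjusted p = 2.05e-08). Timd4 and Trem2, receptors of macrophages, had means of 7.40 and 7.98 CPM in S100β-GFP+ cells and of 0.045 and 0.155 in PSCs. The scavenger receptor Cd36 had 163, 496 and 1476 CPM (-3.18 against NG2-dsRed+ cells, adjusted p = 6.96e-07).

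In the integrin arm, which binds phosphatidylserine through the secreted bridges MFG-E8 and EDIL3, 2 of 5 genes were higher and 2 lower in PSCs against S100β-GFP+ cells, and 3 higher and 2 lower against NG2-dsRed+ cells. The beta subunits went opposite ways. Against the S100β-GFP+ population Itgb3 was raised in PSCs (means of 120, 33.3 and 15.9 CPM, log2 fold change 1.85, SE 0.35, adjusted p = 5.74e-05), whereas Itgb5 was lower (25.2, 101 and 76.3 CPM, -2.01, SE 0.29, adjusted p = 9.81e-07). The bridges did so against NG2-dsRed+ cells, with Edil3 higher in PSCs (8.27, 3.36 and 0.983 CPM, 3.05, SE 0.56, adjusted p = 4.62e-05) and Mfge8 lower (81.8, 164 and 795 CPM, -3.28, SE 0.33, adjusted p = 2.56e-09).

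Of 10 other signals that mark or spare a target, PSCs were lower for 8 and higher for 1 when set against S100β-GFP+ cells, and lower for 6 and higher for 2 when set against the NG2-dsRed+ population. The complement components C1qa and C1qb, which macrophages make and which are also in the macrophage list, had means of 115 and 375 CPM in S100β-GFP+ cells against 0.313 and 0.598 in PSCs (log2 fold changes -8.47 and -9.29, adjusted p = 7.1e-14 and 4.7e-13). C3, the complement component that C1q activation deposits, was at 1.91, 377 and 13.7 CPM, and Anxa1, a phosphatidylserine-binding annexin, at 17.4, 613 and 117. Both were lower in PSCs than in NG2-dsRed+ cells (-2.90 and -2.76, adjusted p = 0.00174 and 9.64e-12).

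Downstream of the receptors, 4 of 16 signalling and actin genes were higher and 9 lower in PSCs against S100β-GFP+ cells, and 2 higher and 8 lower against NG2-dsRed+ cells. Syk, a kinase of leukocyte phagocytosis, had means of 1.66, 120 and 4.36 CPM (log2 fold change -6.17 against S100β-GFP+ cells, SE 0.48, adjusted p = 1.11e-11), and the Rac activator subunit Elmo1 had 17.1, 47.0 and 41.9 (-1.29 against NG2-dsRed+ cells, adjusted p = 1.54e-06). Ptk2, focal adhesion kinase, was higher in PSCs (172, 42.6 and 121 CPM, 2.02 against S100β-GFP+ cells, adjusted p = 8.71e-08). Phagosome maturation, the fusion of the taken-up vesicle with lysosomes, had 0 of 16 genes higher in PSCs by edgeR's test in either comparison and 8 and 6 lower. At an unadjusted p under 0.05 the higher genes were 1 and 0, by DESeq2 0 and 0, and by limma-voom 1 and 0. The lower genes were 8 and 6 by DESeq2 and 10 and 10 by limma-voom. Both directions together, the edgeR counts are near the share of all genes called, and nothing is read from that total. By direction they are not, since 22.9% and 20.9% of all genes were higher in PSCs and 24.1% and 23.1% lower. No test was made of this list as a set. Its leading gene was the lysosomal protease Ctsl, with 127, 584 and 281 CPM (-2.21, SE 0.18, adjusted p = 1.96e-11 and -1.15, SE 0.17, adjusted p = 1.43e-06 in the same order of comparisons), while Uvrag, of endosome fusion, had 23.3, 90.2 and 38.5 CPM (-1.95 against S100β-GFP+ cells, adjusted p = 7.16e-07).

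Enzymes that act on the TAM system itself add gamma-carboxyl groups to its ligands or shed its receptors. In this list 1 of 5 was higher and 1 lower in PSCs in both comparisons. Adam17, which cuts AXL and MERTK from the cell surface, had means of 194, 77.3 and 50.8 CPM (log2 fold changes 1.33, SE 0.18, adjusted p = 2.53e-07 and 1.93, SE 0.17, adjusted p = 8.52e-11). Adam10, with the same kind of activity, went slightly the other way (58.5, 86.2 and 85.6 CPM, -0.56 and -0.55, adjusted p = 0.000982 and 0.000744). Of 7 scramblases and flippases of phosphatidylserine, 2 were higher and 2 lower against S100β-GFP+ cells. Against NG2-dsRed+ cells 0 were higher by edgeR (0 also at an unadjusted p and by limma-voom, 1 by DESeq2) and 3 lower. Atp11a, a flippase subunit, was lower in both (34.8, 60.5 and 58.0 CPM, -0.80 and -0.74, adjusted p = 0.0102 and 0.0133). In the family of Lrp1, 1 of 5 genes was higher and 3 lower against S100β-GFP+ cells, and 1 higher and 1 lower against NG2-dsRed+ cells. Lrpap1, the chaperone of LRP1, was slightly higher in PSCs than in the NG2-dsRed+ population (115, 81.6 and 83.1 CPM, 0.47, adjusted p = 0.0243).

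**Figure D5:**
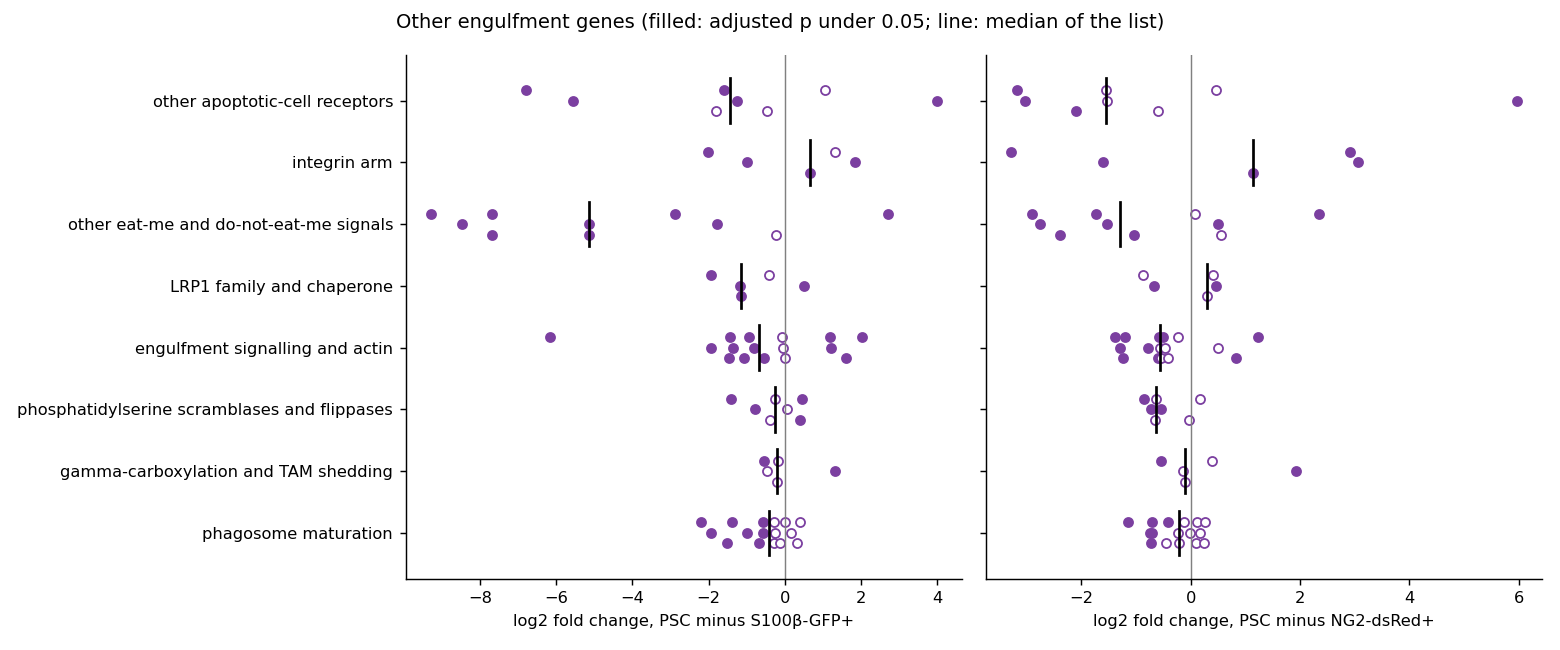
Log2 fold changes of the 72 tested genes of 8 other engulfment lists, PSCs minus S100β-GFP+ cells on the left and PSCs minus NG2-dsRed+ cells on the right, filled for an adjusted p under 0.05, with the median of each list as a line. Adgrb1 is the point farthest to the right in both panels, and C1qb and C1qa are the points farthest to the left in the S100β-GFP+ panel.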

How the data were processed

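RNA-seq libraries were made with a SMART-Seq v4 kit from FACS-sorted muscle cells of single mice. The deposited values are raw counts per gene. According to the submitters' processing notes, the authors used HISAT2 and HTSeq on GRCm38 (versions not given). Of 36 labelled libraries, 12 per cell type, 9 had no column and were not analysed here. The study kept fewer S100β-GFP+ replicates than the 8 columns, so 1 of these may be a library its authors left out. Library numbers named the replicates. No 2 columns were identical, and replicates always differed beyond sampling noise (a chi-square of at least 8.2 per degree of freedom).

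Symbols and positions came from GENCODE M21 (99.56% of identifiers). Fits used R 4.3.3 and edgeR 4.0.16 (TMM, filterByExpr with a minimum count of 10, 1 quasi-likelihood fit of the 3 cell types, Benjamini-Hochberg adjustment over 15330 genes, threshold 0.05), tested first on simulated counts. Standard errors were obtained as log2 fold change over the root of F. Correlations used a prior count of 2. The floor (3 counts) covers counting error only, whereas the standard errors and SDs also include differences between libraries of a group. Low genes, at a few CPM, rest on few counts.

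Named genes were the 10 members, for each the 2 genes with the highest correlation, up to 2 genes with the largest change per list and contrast, and genes that overlap a member. A gene that this rule names is not reported here. The members and lists were chosen with earlier results of these data known. Alternatives were DESeq2 1.42.0 (Wald test, or its size factors in edgeR), no filter, only the compared cell types, limma 3.58.1 voom with quality weights, the share of Lars2, Gm23935 and Gm15564 as a term, S100β-GFP+ libraries 14, 17 and 22 left out, and each library left out in turn.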

Additional observations from a re-analysis of the deposited data

Results flagged for a closer look

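Among 30 groups of libraries (10 genes in 3 cell types), 4 held a library far from the rest of its group by Dixon's criterion, in 3 genes, and chance marks about 1 in 20 groups. Tyro3 was at 19.9 CPM in PSC library 23 (127 counts), with the other PSC libraries at 2.63 to 11.2, and at 8.88 CPM in S100β-GFP+ library 33 (40 counts), with the others at 1.66 to 4.77. Gas6 was at 43.5 CPM in PSC library 31, with the others at 11.2 to 23.4. Pros1 was at 348 CPM in PSC library 18, with the others at 111 to 227. The higher Tyro3 and Pros1 and the lower Gas6 of PSCs passed edgeR's test with each of these libraries left out in turn. No fit left out both of the Tyro3 libraries.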

How the results depend on the processing

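Of the 30 comparisons of a member, 23 kept their direction and their side of the threshold in 7 alternatives and with each of 27 libraries left out. The number of members past the threshold was 8 against S100β-GFP+ cells (8 to 9 over the alternatives), 8 against NG2-dsRed+ cells (7 to 9) and 4 between the other populations (4 to 7, with 7 in limma-voom). The exceptions were these. Pear1, PSCs minus S100β-GFP+ cells, turned to 0.49 in limma-voom, 0.93 without S100β-GFP+ libraries 14, 17 and 22, and between -0.40 and 0.069 with 1 library left out (0.069 without 17 and 0.051 without 22). Gulp1, S100β-GFP+ minus NG2-dsRed+ cells, turned to -0.016 without a filter and -0.14 without libraries 14, 17 and 22, ranged from -0.031 to 0.101 with 1 library left out (-0.013 without 14, -0.031 without 17 and -0.025 without NG2-dsRed+ library 26), and was past the threshold in none of these. Mertk, PSCs minus NG2-dsRed+ cells, lost its call without a filter (adjusted p = 0.0943), with the share of Lars2, Gm23935 and Gm15564 as a term (0.0568) and in 6 of the fits that left out 1 library. Calls were gained in limma-voom for Lrp1 between PSCs and NG2-dsRed+ cells (-0.44, adjusted p = 0.0468), for Megf10 (-0.91), Gas6 (-0.61) and Pros1 (0.28) between the other populations, and for Pros1 there with only these populations in the fit (0.34). The cause was not tested.

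Without a filter 44705 genes were tested, and the calls became 3907 higher and 12649 lower against S100β-GFP+ cells (3511 and 3687 with it) and 8194 higher and 2392 lower between S100β-GFP+ and NG2-dsRed+ cells (2771 and 2328), with medians over all genes of -0.97 and 0.78. Without libraries 14, 17 and 22 the median against S100β-GFP+ cells was 0.16. No paired analysis was possible, because the labels do not say which libraries, if any, came from the same mouse. The fits treated all libraries as independent. Megf11 rests on 0 to 36 counts a library, and the part of depth in its result was not tested.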
